A study of Mus musculus with 17 samples.

Results

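The 32 genes described here encode the enzymes of cholesterol and fatty acid synthesis and the proteins that control them. They were chosen by symbol, as genes of the SREBP pathway, and each was matched to 1 of the 55359 rows of the gene table by its Ensembl identifier. Levels were measured by RNA sequencing in testes and forebrain of male mice on postnatal day 1, in 17 libraries. There were 2 testis libraries of wild-type (WT), 3 of Ocn+/- and 3 of Ocn-/- pups, and 3 forebrain libraries of each genotype, as labelled, with nothing in the labels to tie a library to 1 pup. The study's text is not uniform on the number of WT forebrains, and all those labelled WT were used here. The labels name the brain tissue hippocampus, whereas the study's text describes a forebrain that includes it, and it is called forebrain here. All mice carried the Ocn_GK osteocalcin deletion or its wild-type counterpart on the 129/SvEv background. WT pups had WT mothers, while Ocn+/- and Ocn-/- pups both had Ocn-/- mothers, so that for every difference from WT the genotype of the pup, that of its mother and the litter cannot be told apart.

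Cells make cholesterol from acetyl-CoA through mevalonate, farnesyl diphosphate, squalene and lanosterol, and make fatty acids from the same precursor through malonyl-CoA. The SREBP transcription factors switch on the genes of both routes. They are held in the endoplasmic reticulum by the sterol sensor Scap and its anchor Insig1 until sterols run low, after which they are cut free and enter the nucleus. In the fetal testis cholesterol is the substrate from which Leydig cells make steroid hormones, and the developing brain makes its own cholesterol.

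The 8 testis libraries held 7302401 to 8289015 counts each, and the 9 forebrain libraries 6518151 to 14621584. Forebrain WT 3 stood apart, with the lowest total and 5.34% of counts from mitochondrial genes against 2.40% to 3.18% in the other 8 forebrain libraries. Summed neuron markers lay between 5836 and 6412 CPM (counts scaled to a common library total) in forebrain and between 123 and 167 CPM in testes, and summed fetal Leydig cell markers between 714 and 1772 CPM in testes and between 10.02 and 19.3 CPM in forebrain. Osteocalcin itself could not serve as a check of genotype, since Bglap had 0 to 2 counts in testes and 0 to 5 in forebrain, and Bglap2 had 0 in every library. Every one of the 32 genes had enough counts to be tested in both organs.

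The promoters of these genes were searched for letters that SREBP and its partner NF-Y are known to read. A 250-base stretch before the transcript start and 50 bases after it, on GRCm39, were read on both strands for TCACNCCAC, a form of the sterol regulatory element, and for CCAAT, the NF-Y box. The former was found in 3 of the 32 genes (9.38%) and in 1.34% of 21757 protein-coding promoters, and the latter in 21 of the 32 (65.6%) and in 39.9% of all promoters. The motifs do not overlap in their letters, and a match is a description of sequence, not of a bound site. The stretch around TCACNCCAC in Hmgcs1, an early enzyme of the cholesterol route, is shown first, followed by the 120 bases before the start of Scd1 and of Scd2, the stearoyl-CoA desaturases that differed between genotypes. Capitals mark the motif, TCACNCCAC in Hmgcs1 and CCAAT in Scd1, and each sequence is written 5′ to 3′ on the strand of its gene.
Hmgcs1, chr13:120151732-120151778, plus strand: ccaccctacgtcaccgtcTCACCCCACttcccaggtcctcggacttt
Scd1, chr19:44396341-44396460, minus strand: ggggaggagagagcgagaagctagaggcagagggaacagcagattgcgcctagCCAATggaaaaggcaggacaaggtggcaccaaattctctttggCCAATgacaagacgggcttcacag
Scd2, chr19:44281993-44282112, plus strand: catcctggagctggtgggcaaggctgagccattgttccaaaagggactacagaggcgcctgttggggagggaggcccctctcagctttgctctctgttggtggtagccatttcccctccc
Scd1 held 2 CCAAT boxes in this stretch and Scd2 held 0. Neither gene had a TCACNCCAC match in its 300-base window, whereas Acaca, which makes malonyl-CoA, had 1. Other forms of the sterol regulatory element were not searched for, so that a gene without this match may still hold one.

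Against WT, the genes that were lower in the mutant pups were enzymes that desaturate or elongate fatty acids. In testes of Ocn+/- pups 3 of the 32 genes were lower, namely Scd1, Scd2 and Elovl6, against 4.36% of all genes tested, and 1 was higher, Srebf1, against 3.89%. In testes of Ocn-/- pups Scd1 alone was called, as lower, where 3.09% of all genes were lower and 2.54% higher. In forebrain Scd1 and Scd2 were lower in Ocn+/- pups and again in Ocn-/- pups, with 2.68% and 3.05% of all genes lower, and none of the 32 was higher, with 1.21% and 1.8% of all genes higher. A gene was called at an adjusted p under 0.05 by edgeR's quasi-likelihood test with Benjamini-Hochberg adjustment over all genes of that organ. The comparisons of Ocn+/- and Ocn-/- with WT share the WT libraries of their organ.

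**Figure D1:**
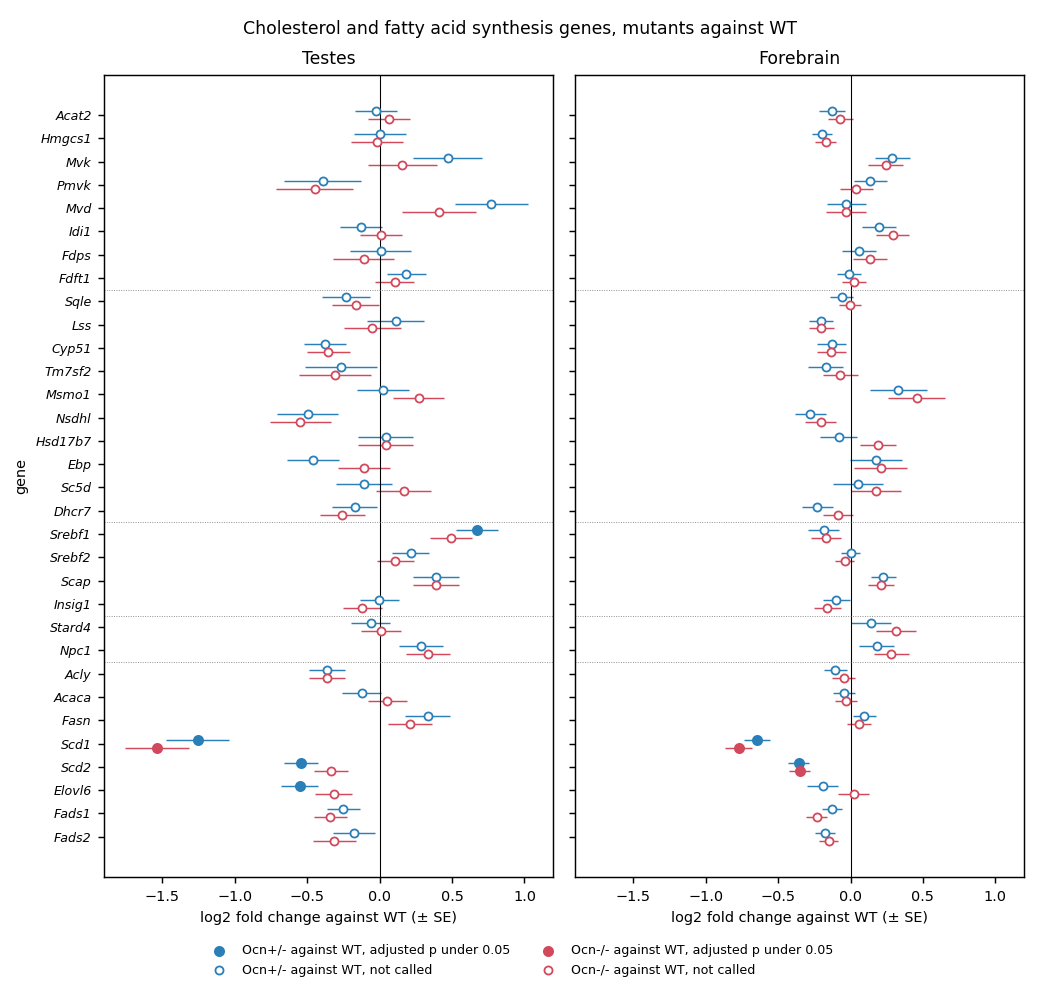
Log2 fold change against WT (x axis, bars are ± SE) of the 32 genes in testes (left) and forebrain (right), with Ocn+/- in blue, Ocn-/- in red and filled points for adjusted p under 0.05; dotted lines separate mevalonate enzymes, enzymes after squalene, SREBP regulators, sterol transport and fatty acid enzymes. Scd1 lies farthest to the left in both organs, at -1.25 and -1.54 in testes and at -0.65 and -0.77 in forebrain.

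Members moved in both directions, and their median was near that of all genes. The median log2 fold change of the 32 genes was -0.09 in testes of Ocn+/- pups and -0.04 in those of Ocn-/- pups, and -0.07 and -0.03 in forebrain. Over all genes tested the corresponding medians were 0.01, -0.01, 0.01 and 0.01. At an unadjusted p under 0.05 there were 12 and 11 of the 32 in testes (37.5% and 34.4%), where 25.9% and 23% of all genes were, and 9 and 11 in forebrain (28.1% and 34.4%), where 20.3% and 21.7% were. None of the 32 differed between Ocn-/- and Ocn+/- pups, in testes (0.0% of all genes) or forebrain (0.00622%, 1 gene). Between the mutant genotypes, the testes comparison held 1881 genes at that unadjusted p and the forebrain comparison 515, each with 1 of the 32, and DESeq2 called 70 genes in testes and 5 in forebrain, 0 of them among the 32.

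Scd1, on chromosome 19 from 44382894 to 44399154, encodes the desaturase that turns saturated into monounsaturated fatty acids in fat and liver. In testes it stood at 66.7 and 40.8 CPM in the WT libraries, at 19.8, 24.4 and 23.4 CPM in Ocn+/- and at 23.0, 18.0 and 14.5 CPM in Ocn-/-. Both WT libraries lay above all 6 mutant libraries, although they differed from each other by more than any libraries of a mutant genotype did. The log2 fold change was -1.25 ± 0.22 (SE) in Ocn+/- (adjusted p = 0.00427, edgeR), a WT level 2.39-fold that of the mutants, and -1.54 ± 0.22 in Ocn-/- (adjusted p = 0.00102), 2.90-fold. Without WT 1, the higher WT library, these changes were -0.85 (adjusted p = 0.119) and -1.13 (adjusted p = 0.0314), so that the call in Ocn+/- was lost. Such a fit keeps 1 WT testis, which is assumed to vary like the other groups, and over all genes it called 131 (without WT 1) or 118 (without WT 2) in place of 1350 in Ocn+/-, and 231 or 85 in place of 922 in Ocn-/-, so that its folds are given beside its adjusted p.

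In forebrain Scd1 in WT lay apart from both mutant genotypes, which overlapped each other. It stood at 83.8, 82.4 and 90.2 CPM in WT, at 59.7, 50.4 and 53.5 CPM in Ocn+/- and at 49.4, 51.0 and 49.3 CPM in Ocn-/-. No mutant library reached the lowest WT value. The log2 fold change was -0.65 ± 0.09 in Ocn+/- (adjusted p = 0.000587, edgeR) and -0.77 ± 0.09 in Ocn-/- (adjusted p = 0.00011), and Scd1 was called in every alternative fit of both forebrain comparisons, including those without WT 3. Of the 14590 genes tested in all 4 comparisons with WT, 50 (0.343%) were lower in each, and Scd1 was the only one of the 32 among them.

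Scd2, the desaturase of brain and of growing tissue, lies beside Scd1 on chromosome 19 from 44281613 to 44295303. Its testes level was 2055 and 1887 CPM in WT, 1421, 1285 and 1349 CPM in Ocn+/- and 1462, 1579.8 and 1636 CPM in Ocn-/-. Both WT libraries were above all mutant libraries, with Ocn-/- between WT and Ocn+/-. The log2 fold change was -0.54 ± 0.12 in Ocn+/- (adjusted p = 0.012, edgeR) and -0.34 ± 0.12 in Ocn-/- (adjusted p = 0.0941), where DESeq2 called it lower. Without WT 1 or without WT 2 the change in Ocn+/- was -0.48 or -0.59 and missed the threshold, with adjusted p = 0.171 and 0.109.

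In forebrain Scd2 stood at 1700.1, 1747 and 1788 CPM in WT, at 1418, 1313 and 1350.0 CPM in Ocn+/- and at 1379.5, 1405 and 1324 CPM in Ocn-/-. All mutant libraries were below WT, and the mutant genotypes overlapped each other. The log2 fold change was -0.36 ± 0.07 in Ocn+/- (adjusted p = 0.00946, edgeR) and -0.35 ± 0.07 in Ocn-/- (adjusted p = 0.0107). With library size alone as the scaling it was -0.27 and -0.24 and missed the threshold (adjusted p = 0.0915 and 0.105), as it did in Ocn+/- without Ocn+/- 3 (adjusted p = 0.0572). Scd1 and Scd2 share 4.56% and 4.01% of the 50-base stretches of their transcripts with each other or with Scd3 and a non-coding neighbour. Since Scd2 reads were far more numerous, the shared stretches could weigh on the level of Scd1, and how the counting split them was not tested. Scd3 had 6 to 14 counts in testes and 14 to 37 in forebrain.

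Elovl6, the elongase that lengthens the palmitate made by Fasn, lies on chromosome 3 from 129326004 to 129432144. In testes it stood at 105 and 98.0 CPM in WT, at 68.3, 75.1 and 64.6 CPM in Ocn+/- and at 78.0, 90.7 and 76.1 CPM in Ocn-/-. All mutant libraries were below both WT libraries. The change was -0.55 ± 0.13 in Ocn+/- (adjusted p = 0.0163, edgeR) and -0.32 ± 0.13 in Ocn-/- (adjusted p = 0.141), and it was not called in Ocn+/- without WT 1 (-0.49, adjusted p = 0.177) or without WT 2 (-0.59, adjusted p = 0.13), nor without Ocn+/- 1 or Ocn+/- 3 (adjusted p = 0.0617 and 0.0684). In forebrain the genotypes overlapped, with 83.0, 96.0 and 98.2 CPM in WT, 92.9, 73.0 and 75.9 CPM in Ocn+/- and 102, 97.1 and 81.7 CPM in Ocn-/-.

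Upstream of the desaturases, the enzymes that supply malonyl-CoA and palmitate were not called. Fasn, the fatty acid synthase, stood in testes at 399 and 359 CPM in WT, at 483, 407 and 542 CPM in Ocn+/- and at 481, 353 and 480.3 CPM in Ocn-/-, a log2 fold change of 0.33 ± 0.15 and 0.21 ± 0.15. In forebrain it stood at 728, 776 and 680.4 CPM in WT, at 754, 799.6 and 779.6 CPM in Ocn+/- and at 779, 683 and 813 CPM in Ocn-/-, with changes of 0.09 ± 0.08 and 0.06 ± 0.08. In testes all Ocn+/- libraries were above both WT libraries and the Ocn-/- libraries overlapped WT, and in forebrain both mutant genotypes overlapped WT. Acly, which makes cytosolic acetyl-CoA, was at -0.36 in both mutant genotypes in testes (adjusted p = 0.0799 and 0.0936), and DESeq2 called it lower in each. Fads1 and Fads2, which desaturate polyunsaturated fatty acids, lay between -0.34 and -0.18 in testes and between -0.23 and -0.13 in forebrain, and the one nearest the threshold was Fads1 in forebrain of Ocn-/- pups (adjusted p = 0.061). DESeq2 called Fads1 lower in Ocn-/- pups in testes and in forebrain.

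Summed over the 8 fatty acid genes, the testes level was 3677 to 4051.5 CPM in WT and 2796 to 3338 CPM in the mutants, and the forebrain level 3622 to 3776 CPM and 3179 to 3274 CPM. Scd2 alone made up 50.7% to 51.3% of the sum in WT testes and 46.3% to 49.2% in WT forebrain. Scd1 and Scd2 were picked for being lower in these data, so that a smaller gap without them was fixed in advance. It does not show that the difference was confined to them. Once they were left out, the sums of WT and mutants overlapped in both organs. They were then 1750.0 to 1929.5 CPM in WT testes and 1487 to 1859 CPM in mutant testes, and 1757 to 1947 CPM and 1729 to 1838 CPM in forebrain.

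**Figure D2:**
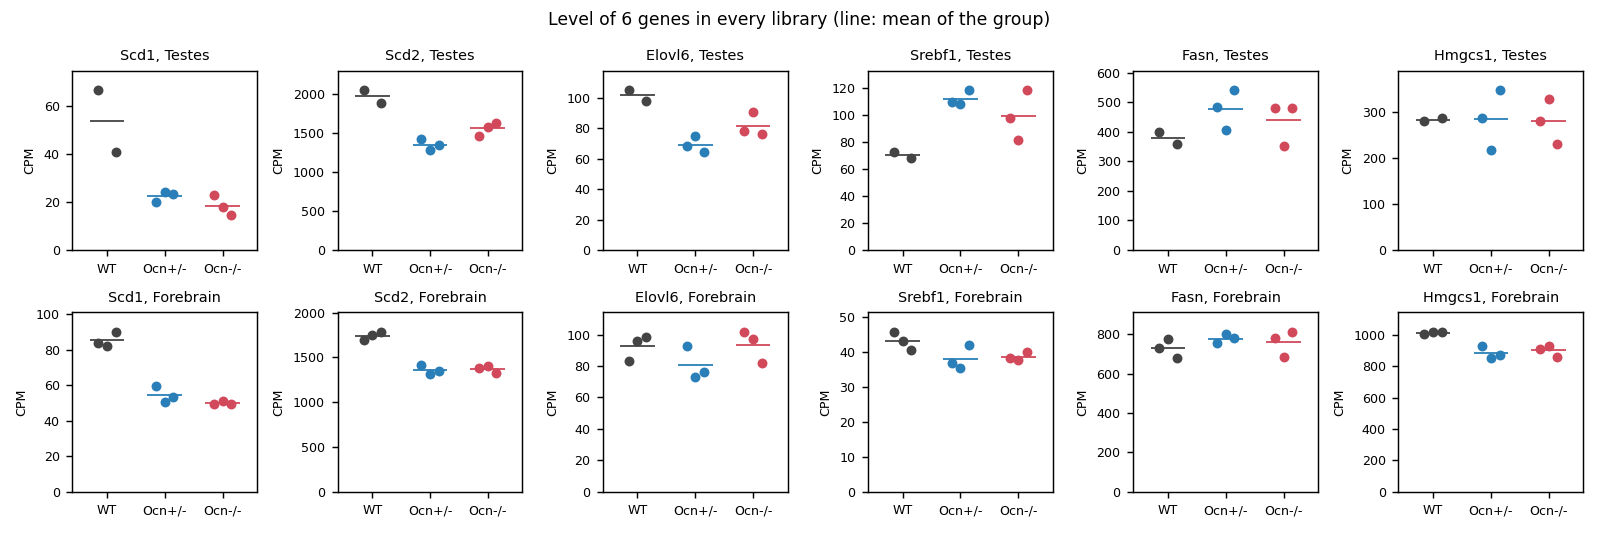
Level in CPM (y axis from 0) of Scd1, Scd2, Elovl6, Srebf1, Fasn and Hmgcs1 in every library of testes (top) and forebrain (bottom), with 1 point per library and a line at the group mean. The mutant points of Scd1 and Scd2 lie below every WT point in both organs, those of Srebf1 lie above WT in testes only, and the Ocn-/- points of Fasn overlap WT in both organs.

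None of the 8 enzymes from acetyl-CoA to squalene was called against WT in either organ. Hmgcs1, on chromosome 13 from 120151915 to 120170470, makes HMG-CoA. Its testes level was 279 and 287 CPM in WT, 286, 218 and 348 CPM in Ocn+/- and 280.4, 328 and 230.2 CPM in Ocn-/-. The mutant libraries lay on both sides of WT, and the log2 fold changes were 0.00 ± 0.18 and -0.02 ± 0.18. In forebrain, at 1005, 1016 and 1019.9 CPM in WT, 929.9, 849 and 874 CPM in Ocn+/- and 912, 930.3 and 857 CPM in Ocn-/-, all mutants were below all WT, by -0.20 ± 0.07 and -0.17 ± 0.07 (adjusted p = 0.125 and 0.17).

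The other mevalonate enzymes in testes ranged from -0.39 (Pmvk) to 0.77 (Mvd, adjusted p = 0.0672) in Ocn+/- and from -0.45 (Pmvk) to 0.41 (Mvd) in Ocn-/-. Mvd was called higher in Ocn+/- with no filter, with only the genotypes compared, without Ocn-/- 3 and without Ocn+/- 2. Their forebrain range was narrower, from -0.13 for Acat2 to 0.29 for Mvk in Ocn+/- and from -0.07 for Acat2 to 0.29 for Idi1 in Ocn-/-. Acat2 makes acetoacetyl-CoA, Mvk, Pmvk and Mvd carry mevalonate to isopentenyl diphosphate, and Idi1 isomerises the latter. Fdps, which makes farnesyl diphosphate, and Pmvk lie 0.709 and 1.07 Mb from the osteocalcin genes on chromosome 3, and neither was called. Summed over the 8 enzymes, testes gave 619 to 647 CPM in WT, 535 to 769 CPM in Ocn+/- and 551 to 700.1 CPM in Ocn-/-.

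From squalene to cholesterol, 0 of 10 enzymes were called in any comparison with WT. Sqle, the squalene epoxidase, lies on chromosome 15 from 59186869 to 59203043. It stood in testes at 111 and 98.7 CPM in WT, at 83.7, 73.4 and 111 CPM in Ocn+/- and at 92.9, 107 and 80.2 CPM in Ocn-/-. In forebrain it stood at 217, 219.9 and 207 CPM in WT, at 202, 208 and 206 CPM in Ocn+/- and at 232, 215 and 195 CPM in Ocn-/-. WT and mutant libraries overlapped in both organs, and the largest of the 4 changes in size was -0.23 ± 0.16, in testes of Ocn+/- pups.

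Cyp51, which removes a methyl group of lanosterol, was -0.38 and -0.35 in testes, and Nsdhl, which acts on the next intermediates, was -0.50 and -0.55, with no adjusted p below 0.116. With no filter Nsdhl was called lower in both. In forebrain the range ran from Nsdhl at -0.28 to Msmo1 at 0.33 in Ocn+/- and from -0.21 to 0.46, for the same genes, in Ocn-/-. Msmo1 is the methyl sterol oxidase that acts just before Nsdhl. In forebrain of Ocn-/- pups it was called higher with the replicate block, with no filter and without Ocn-/- 3, and Idi1 was called higher with no filter and without Ocn-/- 3. The median SE of the 32 genes was 0.16 in testes of Ocn+/- pups and 0.10 in forebrain, which sets how small a change could be told from 0.

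Of the 4 regulators, Srebf1 was higher in testes of Ocn+/- pups. Srebf1, on chromosome 11 from 60089913 to 60113407, encodes the SREBP that favours fatty acid genes. It stood in testes at 72.6 and 68.0 CPM in WT, at 109.6, 108 and 118 CPM in Ocn+/- and at 97.3, 81.1 and 119 CPM in Ocn-/-. All 6 mutant libraries were above both WT libraries, with the Ocn-/- libraries more scattered. The log2 fold change was 0.67 ± 0.15 in Ocn+/- (adjusted p = 0.0131, edgeR) and 0.49 ± 0.15 in Ocn-/- (adjusted p = 0.0562). Without WT 1 or WT 2 the change in Ocn+/- was 0.73 or 0.64 (adjusted p = 0.105 and 0.164), and without Ocn+/- 3 it was 0.63 (adjusted p = 0.0525). In Ocn-/- Srebf1 was called higher with DESeq2, with library size alone, with no filter, with at least 10 counts in every library, without Ocn-/- 2 and without Ocn+/- 2.

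In forebrain Srebf1 was at 45.8, 43.2 and 40.6 CPM in WT, 36.9, 35.5 and 41.8 CPM in Ocn+/- and 38.1, 37.5 and 40.0 CPM in Ocn-/-. WT and Ocn+/- overlapped, the Ocn-/- libraries lay just below WT, and the changes were -0.19 ± 0.10 and -0.17 ± 0.10. The difference between the organs was tested by an interaction term in a fit of all 17 libraries, which called 2.96% of all genes. For Srebf1 the mutant change in forebrain minus that in testes was -0.75 ± 0.16 (adjusted p = 0.0131, edgeR), and it was the only one of the 32 called. Without Testes WT 1 or WT 2 it was -0.79 or -0.70 (adjusted p = 0.0591 and 0.114). For Scd1 the interaction was 0.70 ± 0.20 (adjusted p = 0.0563), and for Scd2 0.10 ± 0.11 (adjusted p = 0.674).

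Srebf2, which favours cholesterol genes, stood in testes at 228 and 201 CPM in WT, at 239.6, 244 and 264 CPM in Ocn+/- and at 251, 202 and 240.4 CPM in Ocn-/-. In forebrain its libraries kept within 303 to 322 CPM in all 3 genotypes, with changes of 0.00 ± 0.07 and -0.04 ± 0.07. Insig1, itself a target of SREBP and the anchor that retains it, was at 103 and 119 CPM in WT testes, at 96.0, 111 and 126 CPM in Ocn+/- and at 99.2, 96.1 and 111 CPM in Ocn-/-. The genotypes overlapped there. In forebrain Insig1 was at 80.4, 91.7 and 82.7 CPM in WT, at 70.5, 87.3 and 80.6 CPM in Ocn+/-, which overlapped WT, and at 73.7, 75.6 and 78.6 CPM in Ocn-/-, which lay below it (-0.16 ± 0.09, adjusted p = 0.33). Scap changed by 0.39 ± 0.16 in each mutant genotype in testes and by 0.23 ± 0.09 and 0.21 ± 0.09 in forebrain, with no adjusted p below 0.134. In testes Scap was called higher in both without Ocn-/- 2, and in Ocn+/- with only the genotypes compared.

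Stard4, which carries cholesterol between membranes, stood in testes at 89.3 and 94.0 CPM in WT, at 73.7, 92.4 and 97.5 CPM in Ocn+/- and at 100.5, 91.6 and 84.5 CPM in Ocn-/-. In forebrain it was at 33.8, 31.3 and 33.6 CPM in WT, 44.6, 29.4 and 34.9 CPM in Ocn+/- and 43.7, 44.1 and 35.1 CPM in Ocn-/-. The testes values overlapped, and in forebrain all Ocn-/- libraries were above WT without reaching the threshold (0.32 ± 0.14, adjusted p = 0.188). Npc1, which releases cholesterol from lysosomes, changed by 0.29 and 0.33 in testes and by 0.18 and 0.28 in forebrain, none of them called. Without Ocn-/- 2, Npc1 was called higher in Ocn-/- testes.

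Counted by library rather than by test, 8 of the 32 genes (25%) had every mutant testis below both WT testes, where 13.6% of all genes tested did, and 1 (3.12%) had every mutant above, where 12.5% did. The former were Cyp51, Tm7sf2, Nsdhl, Acly, Scd1, Scd2, Elovl6 and Fads1, and the latter was Srebf1. In forebrain 6 genes (18.8%) lay wholly below WT, against 8.57% of all genes, and 2 (6.25%) wholly above, against 6.85%. The former were Hmgcs1, Lss, Scd1, Scd2, Fads1 and Fads2, and the latter Mvk and Scap. Those that lay below WT in both organs were Scd1, Scd2 and Fads1.

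The organs differed far more in these genes than the genotypes did, as was so over all genes tested. In testes 23 of the 32 were lower than in forebrain, where 39.9% of all genes tested were, and 5 were higher (Ebp, Srebf1, Scap, Stard4 and Acly), where 44.5% were. All 8 mevalonate enzymes were lower in testes, with a median log2 difference of -1.53, led by Hmgcs1 at -2.05 ± 0.08 and Acat2 at -1.95 ± 0.07. Of the enzymes after squalene 8 of 10 were lower, with a median of -0.78, while Ebp was higher by 1.11 ± 0.10. Over all 32 genes the median was -0.63, against 0.09 over all genes tested. Among the regulators and sterol carriers, Scap was higher in testes by 0.80, Srebf1 by 0.88 and Stard4 by 0.98, Srebf2 was lower by -0.76, and Insig1 and Npc1 were not called.

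Scaled to CPM per kilobase of annotated exon, which allows levels of different genes to be set side by side, Scd2 was highest in both organs. It was at 187 ± 31.98 CPM per kb in testes (SD, n = 8) and 220.4 ± 28.4 in forebrain (SD, n = 9), and the log2 difference was -0.21, which turned to 0.11 with library size alone as the scaling. Hmgcs1 came next in both, at 47.4 ± 6.97 and 197 ± 14.2 CPM per kb. In WT testes alone Fads1 ranked 2 and Hmgcs1 ranked 3, at 48.2 and 47.76 CPM per kb. In testes Fads1 (41.4 ± 4.66), Fads2 (35.2 ± 4.99) and Fasn (33.2 ± 5.12) followed, with SDs that overlapped, and in forebrain Fasn (71.7 ± 4.37) was above Fads2 (52.9 ± 3.16). At the lower end, Mvk, which has long annotated exons beyond its canonical transcript, was at 1.53 ± 0.35 CPM per kb in testes and Ebp at 2.22 ± 0.24 in forebrain. Scd1 was far below Scd2, at 3.54 ± 2.12 and 9.77 ± 2.62 CPM per kb, ranking 29 of 32 in testes and 21 in forebrain over all genotypes. In WT alone it was at 6.62 ± 2.25 (SD, n = 2) and 13.2 ± 0.71 CPM per kb (SD, n = 3), ranking 22 and 18. The order depended on the length used. Divided by the canonical transcript instead, a choice made after seeing the data, Scd2 was still highest in both organs, Mvk lowest in testes (3.47 CPM per kb) and Ebp lowest in forebrain (5.20 CPM per kb), whereas Hmgcs1 ranked 5 in testes and Fasn 9 in testes and 6 in forebrain.

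**Figure D3:**
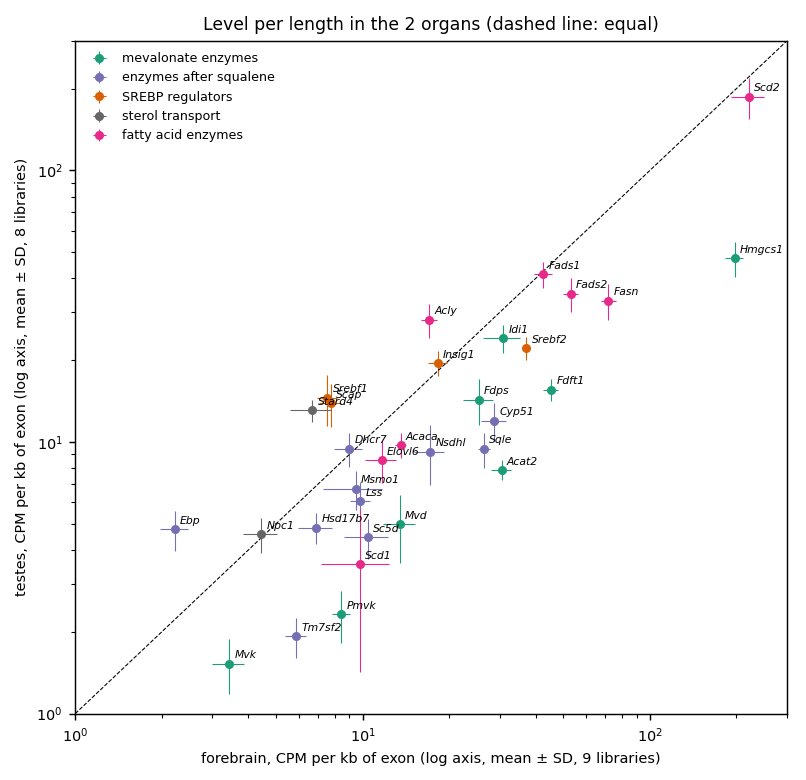
Mean level of the 32 genes in CPM per kb of annotated exon in forebrain (x, 9 libraries) and testes (y, 8 libraries), both on log axes, with SD bars over all genotypes and the line of equal level dashed. All 8 mevalonate enzymes lie below the line. Ebp, Srebf1, Scap, Stard4 and Acly lie well above it, and Insig1, Dhcr7 and Npc1 lie just above it.

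Around the 32 genes, lists of neighbouring steps of the pathway were counted in the same fits, in which 4.36% and 3.09% of all genes were lower and 3.89% and 2.54% higher in testes of Ocn+/- and Ocn-/- pups, and 2.68% and 3.05% lower and 1.21% and 1.8% higher in forebrain. Of 13 tested genes for sterol export, storage and breakdown, 5 were lower in testes of Ocn+/- pups and 4 in those of Ocn-/- pups, and 0 were higher, with medians of -0.42 and -0.57. Soat1, the enzyme that esterifies cholesterol for storage, stood at 282 and 244 CPM in WT testes, at 98.0, 120.4 and 112 CPM in Ocn+/- and at 144, 123 and 143 CPM in Ocn-/-. All mutants were well below WT, by -1.25 ± 0.13 (adjusted p = 2.66e-05, edgeR) and -0.94 ± 0.13 (adjusted p = 0.000591), and it was called without either WT library. Lipa, which hydrolyses cholesteryl esters in lysosomes, was at 90.8 and 93.5 CPM in WT and from 44.2 to 67.0 CPM in the mutants, changes of -0.79 (adjusted p = 0.0056) and -0.67 (adjusted p = 0.0154).

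Cyp27a1, a sterol hydroxylase, was at 46.4 and 43.2 CPM in WT testes and from 23.0 to 30.6 CPM in the mutants (-0.78 and -0.73, adjusted p = 0.0109 and 0.0167). In Ocn+/- the list also held Abca1, which exports cholesterol (-0.64, adjusted p = 0.0139), and the oxysterol hydroxylase Cyp7b1 (-0.99, adjusted p = 0.0395). In forebrain 0 of 11 tested genes of this list were called in Ocn+/- and 1 in Ocn-/-, the sterol exporter Abcg1 (-0.64, adjusted p = 0.00955), with medians of -0.12 and -0.10.

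Of 22 further genes of cholesterol synthesis, uptake and SREBP control tested in testes, 3 were lower and 1 higher in Ocn+/-, and 0 were called in Ocn-/-. The cholesterol carrier of endosomes Stard3 was higher in Ocn+/- testes by 0.63 (adjusted p = 0.0298), and Pgrmc1 and Pgrmc2, haem-binding partners of sterol enzymes, were lower by -0.74 (adjusted p = 0.00313) and -0.47 (adjusted p = 0.0265). Of the 21 tested in forebrain, 1 was higher in Ocn+/-, and in Ocn-/- 2 were lower and 2 higher. The former were the sterol reductase Lbr (-0.47, adjusted p = 0.0379) and the SREBP protease Mbtps2 (-0.32, adjusted p = 0.0485), and Erlin1, which binds the SREBP complex in the membrane, was among the latter (0.55, adjusted p = 0.0418).

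Of the further genes of fatty acid and triglyceride synthesis, 21 were tested in testes and 22 in forebrain. In Ocn+/- testes 2 were lower, the elongase Elovl5 (-0.63, adjusted p = 0.0069) and Hsd17b12, which works in the same elongation cycle (-0.46, adjusted p = 0.045). In Ocn-/- testes 1 was higher, the elongase Elovl2 (0.79, adjusted p = 0.0146). In forebrain the acetyl-CoA synthetase Acss2 was the only one called, lower in Ocn-/- (-0.57, adjusted p = 0.0446).

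Steroid synthesis, for which cholesterol is the substrate, was represented by 14 genes tested in testes. In Ocn+/- 2 were lower, Cyb5a (-0.71, adjusted p = 0.00656) and Lhcgr, and in Ocn-/- also 2, Fdx1 (-1.60, adjusted p = 0.0449) and Lhcgr, with list medians of -0.23 and -0.37. Lhcgr, the receptor for luteinizing hormone, stood at 61.2 and 74.4 CPM in WT, at 31.0, 24.1 and 31.6 CPM in Ocn+/- and at 37.0, 24.1 and 27.9 CPM in Ocn-/- (-1.23 and -1.19, adjusted p = 0.00132 and 0.00149). Star, which brings cholesterol into mitochondria, was at 518 and 299.9 CPM in WT, at 96.4, 56.0 and 209.7 CPM in Ocn+/- and at 215, 71.1 and 89.3 CPM in Ocn-/-. Cyp11a1, which cleaves its side chain, was at 413 and 422 CPM in WT, at 217, 136 and 306 CPM in Ocn+/- and at 228, 168 and 189 CPM in Ocn-/-. For both genes every mutant library was below WT, yet the spread was wide and neither passed the test (Star -1.76 and -1.71, adjusted p = 0.219 and 0.258, and Cyp11a1 -0.93 and -1.10, adjusted p = 0.102 and 0.079).

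With 1 WT testis left, Soat1 in both genotypes and Lhcgr in Ocn+/- were still called, and Lhcgr in Ocn-/- was not called without WT 2 (-1.02, adjusted p = 0.0615). The other 12 genes named from these lists missed the threshold without WT 1 and also without WT 2 (adjusted p from 0.0564 to 0.354), in fits that called far fewer genes of any kind. Their changes kept their direction in all 28 of these values and came to 74.2% to 119% of the change with both WT testes. In forebrain Abcg1, Lbr, Mbtps2, Erlin1 and Acss2 missed it without WT 3 (adjusted p from 0.0602 to 0.206), with 71.2% to 95.3% of the change left.

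**Figure D4:**
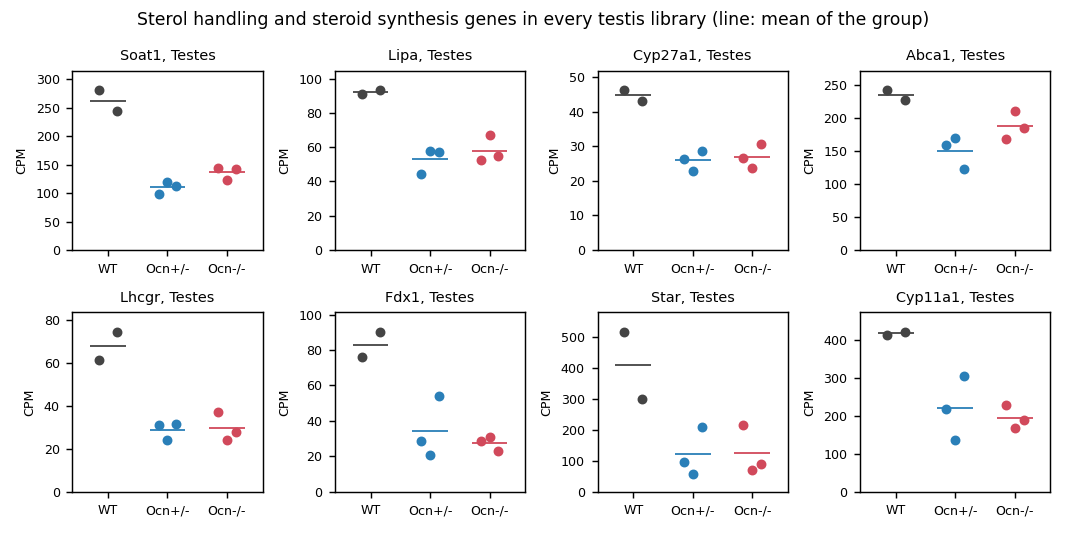
Level in CPM (y axis from 0) of Soat1, Lipa, Cyp27a1, Abca1, Lhcgr, Fdx1, Star and Cyp11a1 in each of the 8 testis libraries, with 1 point per library and a line at the group mean. Both WT points lie above all mutant points in all 8 panels, and Star, Fdx1 and Cyp11a1 scatter more within a mutant genotype than Soat1 does.

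Whether the cholesterol genes followed steroid synthesis from testis to testis was examined over the 6 mutant libraries, for Hmgcs1, Sqle, Insig1, Stard4 and Scd1 against Star and Cyp11a1. Pearson's r of log2 CPM ranged from 0.144 to 0.672, and 0 of the 10 relations passed an adjusted p of 0.05. The closest, Hmgcs1 with Cyp11a1, had r = 0.672 (exact permutation p = 0.131, adjusted p = 0.715) and Spearman's rho = 0.6 (exact permutation p = 0.242, adjusted p = 0.829). Without the 2 libraries farthest from the median of Cyp11a1 its r was -0.245. That leaves few libraries over a narrower range of Cyp11a1, so that it cannot show what the first r rested on. The 2 mutant genotypes were pooled, and no r was taken within either, each having 3 libraries.

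In testes, markers of other cell types moved with the genotypes beside these results, and in bulk tissue fewer cells of a type and less RNA per cell cannot be told apart. Of all genes tested, 4.36% and 3.09% were called lower in Ocn+/- and Ocn-/- testes, and 3.89% and 2.54% higher. The 5 endothelial markers summed to 529 to 541 CPM in WT, 341 to 401 CPM in Ocn+/- and 318 to 347 CPM in Ocn-/-, and 3 and 4 of the 5 were called lower. The 6 fetal Leydig cell markers (Star, Cyp11a1, Cyp17a1, Hsd3b1, Insl3 and Lhcgr), all of them also in the list of steroid genes above, summed to 1691 to 1772 CPM in WT, 714 to 1249 CPM in Ocn+/- and 743 to 1134 CPM in Ocn-/-, with 1 of 6, Lhcgr, called in each. Smooth muscle and peritubular markers summed to 914.6 to 1132 CPM in WT and 665.3 to 887.1 CPM in Ocn-/-, all below WT. In Ocn+/- they summed to 780.1 to 991.5 CPM, and none of them was called in either genotype. The 6 erythroid markers summed to 2597 and 6861 CPM in WT, the latter in WT 1, and to 865 to 3941 CPM in the mutants. The 5 Sertoli cell markers summed to 826 to 924 CPM in WT, 814 to 1099.9 CPM in Ocn+/- and 975 to 1341 CPM in Ocn-/-, and Sox9 was called higher in both mutant genotypes (0.92 and 1.10, adjusted p = 0.0031 and 0.000777). The macrophage marker Cd68 was called higher in Ocn+/- (1.32, adjusted p = 0.0231), while the sums of its list overlapped WT. Sox9 in Ocn+/- was not called without WT 1 (adjusted p = 0.0573), nor Cd68 without WT 1, WT 2 or Ocn+/- 3 (adjusted p = 0.184, 0.164 and 0.0862).

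Of 11 adipocyte markers 5 had enough counts to be tested, Fabp4 was lower (-1.65 and -2.06, adjusted p = 0.0222 and 0.00881), Lep and Cfd had 0 counts in all libraries and Adipoq had 0 to 4 in testes, and the sums overlapped, at 32.05 to 33.2 CPM in WT and 25.6 to 42.2 CPM in the mutants. The part of these cell types in the differences of Scd1, Scd2, Elovl6, Soat1 and the steroid genes was not tested.

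In forebrain 2.68% and 3.05% of all genes tested were called lower in Ocn+/- and Ocn-/-, and 1.21% and 1.8% higher. The 5 olfactory bulb markers summed to 30.2 to 35.2 CPM in WT, 101 to 130 CPM in Ocn+/- and 24.4 to 83.4 CPM in Ocn-/-, with 0 of 5 called in either. Endothelial markers summed to 128 to 154 CPM in WT and 98.7 to 146 CPM in the mutants, with 2 of 5 called lower in Ocn+/- and 1 of 5 in Ocn-/-. Erythroid markers summed to 522 to 719 CPM in WT, 356 to 407 CPM in Ocn+/- (3 of 5 tested called lower) and 486 to 599 CPM in Ocn-/- (0 called). Oligodendrocyte lineage markers summed to 224 to 249 CPM in WT, 275 to 289 CPM in Ocn+/- and 232 to 278 CPM in Ocn-/-, with Olig1 called higher in both (0.42 and 0.39, adjusted p = 0.0358 and 0.0455). Radial glia and astrocyte markers summed to 775 to 888 CPM in WT, 983 to 1024 CPM in Ocn+/-, all above WT, and 850.1 to 1112 CPM in Ocn-/-, and of these Gfap was called higher in both (0.75 and 0.65, adjusted p = 0.0162 and 0.0289). Without WT 3 neither Olig1 (adjusted p = 0.152 and 0.192) nor Gfap (0.0502 and 0.0966) was called in Ocn+/- or Ocn-/-, and leaving out some other single libraries also ended these calls. Choroid plexus markers summed to 573 to 736 CPM in WT, 571 to 859.6 CPM in Ocn+/- and 320 to 531 CPM in Ocn-/-, with 0 of 5 called. The part of any of these lists in the Scd1 and Scd2 differences was not tested. Without WT 3, the library that stood apart, the log2 fold change of Scd1 was -0.73 in Ocn-/-.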

How the data were processed

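Male pups of postnatal day 1 were studied, and per the labels polyadenylated mRNA was sequenced from testes and hippocampus. The authors trimmed reads with Trim Galore 0.6.6, aligned them to GRCm39 with STAR 2.7.8a and quantified genes with RSEM 1.3.3. They deposited RSEM expected counts, 1 column per library, in 1 table of 55359 genes, of which 9625 held a value that was not whole. The GENCODE release and strandedness are not given in the sources used here. The labels number the libraries of a group as replicates and do not say which pups shared a litter, so that p-values measure the spread between these libraries, which may be technical.

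Expected counts were rounded, and 54749 identifiers were named from GENCODE vM39. Genes with enough counts (edgeR's filterByExpr: 16361 in testes, 16076 in forebrain, 17800 jointly) were fitted per organ with TMM scaling and the robust quasi-likelihood test in edgeR 4.0.16 (R 4.3.3, limma 3.58.1), all genotypes together, and called at an adjusted p under 0.05, two-sided. DESeq2 1.42.0, other scalings and filters, a replicate block and leaving out each library were the alternatives. CPM are counts scaled to a common library total with TMM factors set per organ (jointly for values per kb). An SE is the log2 fold change divided by the square root of its F value. Relations used exact permutation tests in SciPy 1.17.1.

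The genes and lists were chosen with earlier results of these data known. Values of every library are given for those of the 32 genes called against WT. They are always given for Hmgcs1, Sqle, Insig1, Stard4, Srebf1, Srebf2, Fasn, Scd1 and Scd2, with a range for Srebf2 in forebrain. Of the other lists the text gives them for Soat1, Star, Cyp11a1 and Lhcgr. Other called genes named from those lists have a log2 fold change, with a range of mutant levels for Lipa and Cyp27a1. Some genes of these lists are counted but not reported by name here. Promoters are those of canonical GENCODE transcripts. Shares of transcripts held by other genes were high for Fdps (54.2%), Acaca (52.6%), Fdft1 (44.7%) and Acat2 (43.3%), whose counts are uncertain where reads were split.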

Additional observations from a re-analysis of the deposited data

Results flagged for a closer look

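For 6 genes the difference of the mutants from WT was not the same in forebrain and testes by the interaction term (edgeR, adjusted over 17800 genes, forebrain minus testes, log2 scale). They were picked by that call from the 32 genes and the lists around them, and 2.96% of all genes tested were called. Among the 32 genes the interaction was called for Srebf1, at -0.75 (adjusted p = 0.0131). In the lists around them it was negative for Lbr (-0.81, adjusted p = 0.00907), whose changes in Ocn+/- and Ocn-/- were 0.41 and 0.42 in testes and -0.34 and -0.47 in forebrain. It was positive for Pgrmc2 (0.60, adjusted p = 0.0131), Soat1 (0.80, adjusted p = 0.0179), Fdx1 (1.41, adjusted p = 0.0412) and Cyb5a (0.62, adjusted p = 0.0212), whose changes from WT were below 0 in testes in both genotypes and nearer to 0 or above it in forebrain. With 1 WT testis left, which is assumed to vary like the other groups, the interaction called 129 (without WT 1) or 93 (without WT 2) genes in place of 526. Without WT 1 it was -0.79 for Srebf1 (adjusted p = 0.0591), -0.66 for Lbr (0.0967), 0.69 for Soat1 (0.128), 1.53 for Fdx1 (0.0898) and 0.63 for Cyb5a (0.0997), and without WT 2 it was 0.55 for Pgrmc2 (0.115). Over both fits the 6 genes kept their direction, at 81.8% to 120% of the value with both WT testes.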

How the results depend on the processing

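The limits are the 2 WT testes, the shared mother genotype of both mutants and the lower depth of forebrain WT 3. Of the 32 genes, 4 were called in testes of Ocn+/- pups, 5 with DESeq2, 6 with no filter or with only the genotypes compared, and 0 to 5 on leaving out a library (0 without WT 1, 1 without WT 2, 2 without Ocn+/- 3). In testes of Ocn-/- pups 1 was called, 2 with library size alone or with at least 10 counts in every library, 3 with no filter, 5 with DESeq2 and 1 to 4 on leaving out a library (4 without Ocn-/- 2). In forebrain 2 were called in Ocn+/-, 1 with library size alone and 1 to 2 on leaving out a library (1 without Ocn+/- 3), and 2 in Ocn-/-, 1 with library size alone, 3 with DESeq2 or the replicate block, 4 with no filter and 2 to 4 on leaving out a library (4 without Ocn-/- 3). The interaction called 1, 2 with DESeq2, no filter or the minimum of 10 counts (Scd1 added), and 0 to 2 on leaving out a library (0 without Testes WT 1). Scd1 was called in all alternatives of the 4 comparisons with WT other than Ocn+/- testes without WT 1. Scd2 in testes against forebrain turned from -0.21 to 0.11 with library size alone. The cause was not tested.

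Over all genes the calls were 1350 in Ocn+/- testes (966 to 2149 with other settings, 118 to 2019 without a library), 922 in Ocn-/- testes (836 to 1763, and 85 to 1559), 625 in Ocn+/- forebrain (369 to 1265, and 183 to 830), 780 in Ocn-/- forebrain (643 to 1502, and 189 to 919) and 526 for the interaction (397 to 1023, and 93 to 1070). Between the mutant genotypes they were 0 in testes (0 to 252) and 1 in forebrain (0 to 34). Library size alone moved the share of higher calls from 47.2% to 68.1%, 45.1% to 65.2%, 31% to 47.7% and 37.2% to 64.5%, in the same order of comparisons, and the median of all genes to 0.08, 0.07, 0.09 and 0.11.

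Replicate numbers are shared by the labels. Within an organ, deviations of same-numbered libraries from their group means correlated from -0.09 to 0.15, and not every library correlated best with its own number. With groups of 2 or 3 libraries, this cannot decide whether same-numbered libraries share a litter or a batch. Testis and forebrain libraries were not set against each other in this way, and the interaction fit took all libraries as independent. With the replicate block 3 of the 32 genes were called in forebrain of Ocn-/- pups in place of 2, and the counts of the other comparisons with WT are within the ranges above.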
